A study of Mus musculus with 4 samples.

Results

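Cluster 06 is 1 of 8 clusters that the authors assigned to single cells sorted as microglia, the resident macrophages of the brain. Its members are all cells that the authors' file of cells places in that cluster, 494 of 3023 deposited cells. In all, 4 groups of male mice aged 12 to 14 months were compared, each with 1 library that pools cells of 2 animals. The groups were Trem2 +/+ on control diet, Trem2 +/+ on 0.2% cuprizone, Trem2 +/- on cuprizone and Trem2 -/- on cuprizone, all for 12 weeks. They are called wild-type control, wild-type cuprizone, heterozygote and knockout below. Cuprizone binds copper and causes loss of oligodendrocytes and myelin, and Trem2 encodes a lipid-binding receptor of microglia. From each hemibrain 30000 live CD11b+ CD45low cells were sorted after dissociation of the brain with a commercial kit. The labels give neither the Trem2 allele nor whether it is deleted in microglia alone.

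In the healthy brain, microglia express a set of genes called homeostatic, among them the purine receptors P2ry12 and P2ry13 and the surface protein Tmem119. When microglia take up myelin debris or meet other damage, many of these genes fall and genes of lipid handling such as Apoe rise, a state called disease-associated (DAM). Immediate early genes such as Fos and Egr1 are a further set: they are switched on within minutes by many stimuli, enzymatic dissociation of tissue among them, and encode transcription factors and short-lived regulators.

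Cluster 06 held 134 of 571 cells of the wild-type control library (23.5%, exact binomial 95% interval 20.0 to 27.2). It held 122 of 765 cells in wild-type cuprizone (15.9%, 13.4 to 18.7), 104 of 802 in the heterozygote (12.97%, 10.7 to 15.5) and 134 of 885 in the knockout (15.1%, 12.8 to 17.7). The share was highest in the control library, but the clusters were drawn from genes that also differ between libraries, so the shares are a description only. All intervals cover counting error only.

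Its cells were shallow. Transcripts were counted as unique molecular identifiers (UMIs), one per captured molecule. The median per cell was 3391.5 UMIs in wild-type control, 3726 in wild-type cuprizone, 3730 in the heterozygote and 3385 in the knockout, against 3387 over the cells of cluster 01 and 7185 over those of cluster 05. Cluster 01 is therefore the comparison at like depth, and cluster 05 the deeper one. Thinned to 2638 UMIs each, cells of cluster 06 had a median of 1201.5 detected genes, those of cluster 01 had 1219 and those of cluster 05 had 1227. Over all cells the libraries held 4747730 to 7849741 UMIs, and in cluster 06 411665 to 504989. A doublet caller marked 36 of 3023 cells (1.19%), 2 of them in cluster 06, and all were kept. In all 16 cells shared a barcode with a cell of another library, 2 of them in cluster 06.

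The label was checked against cell type markers. Each of the 14 microglia markers reached 50 UMIs in cluster 06, and together they made up between 34512 and 37334 of every 1000000 UMIs (counts per 1000000, CPM) in the 4 libraries. The 14 include the 3 markers given for the cluster. All 14 also reached 50 UMIs in cluster 07, which is rich in markers of border-associated macrophages, so this count does not separate the clusters. Their sum was lower there, between 16819 and 21656 CPM. Markers of border-associated macrophages summed to between 59.4 and 138 CPM, with 1 of 11 at 50 UMIs or more. Monocyte markers reached at most 16.8 CPM. Neutrophil markers ranged from 0 CPM in wild-type control to 180 CPM in the heterozygote, with Mmp8 and Ly6g at 0. T or NK cell markers lay between 11.9 and 16.7 CPM in 3 libraries and at 114 CPM in the knockout, with Cd4 at 0. Only 3 of the 11 listed were measured, and Ccl5 had 72 UMIs where Nkg7 had 1. Oligodendrocyte markers lay between 135 and 227 CPM, astrocyte markers between 75.3 and 156 CPM. Markers of ependyma or choroid plexus lay between 114 and 211 CPM, with Ttr at 294 UMIs. The 4 measured markers of oligodendrocyte precursors were at 0 in every library.

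The markers given for the cluster are Upk1b, a tetraspanin first known from the bladder lining, P2ry13, a receptor for ADP, and Slc2a5, a fructose transporter. In mouse build GRCm38, which is mm10, Upk1b lies on chromosome 16 from 38773184 to 38800328, P2ry13 on chromosome 3 from 59207892 to 59210882 and Slc2a5 on chromosome 4 from 150119283 to 150144169 (GENCODE vM21). Upk1b stood at 204 ± 15.7 CPM in cluster 06 (SD over 4 libraries). In clusters 01 and 05 it was at 172 CPM each, in cluster 02 at 97.1, in cluster 08 at 56.6 and in cluster 04 at 49.1 CPM. P2ry13 was at 738 ± 69.2 CPM in cluster 06, 691 in cluster 01, 577 in cluster 05, 380 in cluster 08, 355 in cluster 02 and 207 in cluster 04. Slc2a5 was at 574 ± 31.5 CPM in cluster 06, and at 538, 502, 275, 244 and 154 CPM in clusters 01, 05, 02, 08 and 04. P2ry12, the ADP receptor that steers microglial processes, was at 4282 ± 187 CPM, against 3917 in cluster 01 and 3708 in cluster 05. Of these 6 clusters, cluster 06 had the highest mean for all 4 genes, and every one of its libraries lay above every library of clusters 02, 04 and 08. The same 4 genes lead the ranking of genes by ratio of cluster 06 to the other clusters pooled. Their standing is therefore a description and no separate check of the label. From cluster 06 to cluster 01, however, the mean log2 ratio was 0.26 ± 0.14 for Upk1b, 0.09 ± 0.18 for P2ry13 and 0.09 ± 0.09 for Slc2a5 (SD over 4 libraries), so P2ry13 and Slc2a5 stood apart by no more than their spread.

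**Figure D1:**
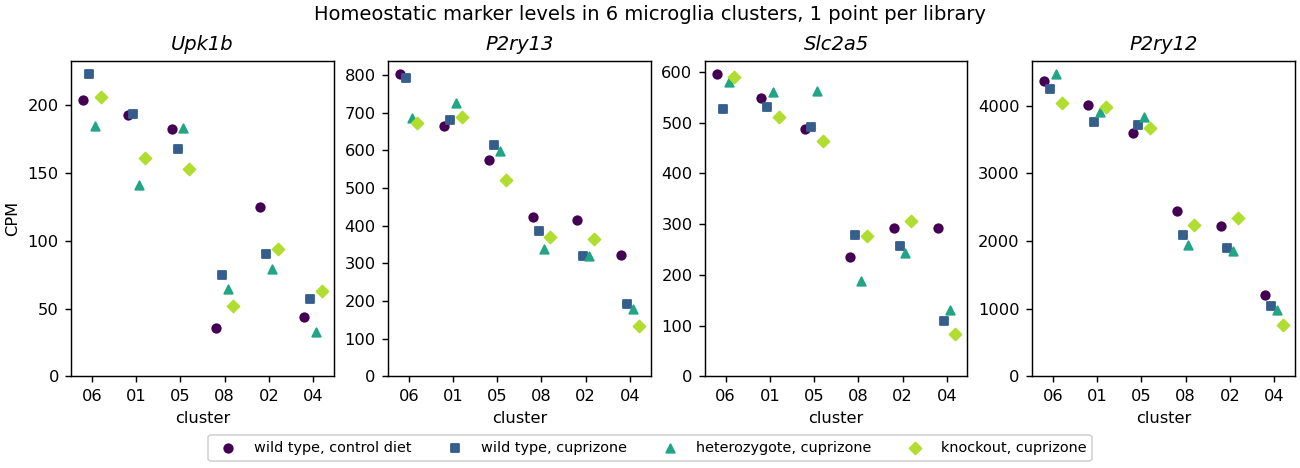
Levels in CPM of Upk1b, P2ry13, Slc2a5 and P2ry12 (vertical axes) in 6 microglia clusters (horizontal axes), with 1 point for each of the 4 libraries. Cluster 06 overlaps cluster 01 for Upk1b, P2ry13 and Slc2a5, reaches 223 CPM for Upk1b, and lies above clusters 08, 02 and 04 in every library.

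At one depth, 34.4% of the cells of cluster 06 had a UMI of Upk1b (exact 95% interval 29.9 to 39.2) and 13.3% of those of cluster 07. The interval pools cells of all libraries, whose shares in cluster 06 ran from 33.0% in wild-type control to 36.6% in the heterozygote. Cluster 07 serves as background: its markers of border-associated macrophages summed to between 2558 and 3910 CPM, and its cells had a median of 8374 UMIs before thinning. Its microglia markers still summed to between 16819 and 21656 CPM, so it gives an upper limit for background rather than a cell type that lacks these genes. For P2ry13 the shares were 80.1% and 50.6%, for Slc2a5 72.0% and 35.3%. Without thinning they were 42.7% and 39.2% for Upk1b, 87.7% and 77.9% for P2ry13, and 80.0% and 62.4% for Slc2a5, since cluster 07 is deeper. The 3 genes were given as markers of cluster 06 and lead its ranking in these same data. Their shares are therefore a description and no check of the label. At matched depth the share in cluster 06 was above that in cluster 07 for all 3 genes. The thinned shares in clusters 01 and 05 were close to it: 33.2% and 31.6% for Upk1b, 81.8% and 78.4% for P2ry13, and 66.8% and 71.3% for Slc2a5. Between libraries of cluster 06, Upk1b ran from 185 CPM in the heterozygote to 223 CPM in wild-type cuprizone.

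The first question is what separates cluster 06 from cluster 01, whose cells have the same depth. Each gene's UMIs were summed per library and cluster, scaled to CPM and set as a log2 ratio in each of the 4 libraries. A gene was called where the mean ratio passed 1.5-fold, all 4 libraries had the same sign and the 8 sums held at least 200 UMIs. The cells were clustered on these same genes, so the ratios describe the clusters and no test applies. Of 2404 genes measured this way, 68 (2.83%) were higher in cluster 06 and 190 (7.9%) were lower, and the median over all of them was a log2 ratio of 0.07. With median-of-ratios scaling the higher genes numbered 104 and the lower 174, which moves the higher share from 26.4% to 37.4%. With mitochondrial and ribosomal genes left out of the totals they numbered 108 and 169, a higher share of 39.0%.

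Of all lists, the immediate early genes had the lowest median. All 25 measured members of the list of immediate early and dissociation response genes were lower in cluster 06, with a median log2 ratio of -2.26. Over the 6165 genes with 50 UMIs, the size at which list members are counted, 8.86% were lower and 2.64% higher, and the median was -0.04. Fos, a part of the AP-1 transcription factor, stood at 893 CPM in wild-type control, 744 in wild-type cuprizone, 736 in the heterozygote and 870 in the knockout in cluster 06. In cluster 01 it was at 6799, 6777, 6703 and 5980 CPM in the same order. No library of one cluster came near the other, and the mean log2 ratio was -3.02 ± 0.20 (SD, 4 libraries). Ier2, a nuclear immediate early protein, was lowest relative to cluster 01: 253, 188, 175 and 177 CPM in cluster 06 against 2116, 2191, 2243 and 2080, a ratio of -3.46 ± 0.27. The zinc-finger factor Egr1 had a ratio of -3.30 ± 0.38 and the stress factor Atf3 one of -3.27 ± 0.30. Jun and Junb, the partners of Fos, were at -2.26 ± 0.22 and -2.34 ± 0.21, and the phosphatase gene Dusp1, which switches off MAP kinases, at -2.56 ± 0.26. At the other end stood Txnip, a binder of thioredoxin, at -0.89 ± 0.47.

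Nfkbia, which encodes the inhibitor IkB-alpha, was at 263, 357, 270 and 238 CPM in cluster 06 and between 1994 and 2497 CPM in cluster 01, a ratio of -2.99 ± 0.18. Tnfaip3, the ubiquitin-editing enzyme A20, had a ratio of -2.83 ± 0.25. Arrdc3, an arrestin-like protein, was at -2.94 ± 0.32.

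Counted per cell, the same UMIs showed the same gap. As the cells were clustered on these same genes, this is a description and no separate check. Immediate early genes took a median of 0.846% of a cell's UMIs in cluster 06 of wild-type control, 0.684% in wild-type cuprizone, 0.980% in the heterozygote and 0.700% in the knockout. Over all libraries the medians were 0.778% in cluster 06, 5.18% in cluster 01 and 3.53% in cluster 05. None of the 494 cells of cluster 06 lay above the median of cluster 01, and 20 (4.05%) lay above its 10th percentile of 3.01%. Cluster 06 also lay below clusters 04 (1.91%), 08 (2.19%) and 02 (3.18%). Within the cluster, the deeper and the shallower cells of each library had medians between 0.511% and 1.08%, with the deeper cells higher in 3 of 4 libraries. Among cells with at most 4368.75 UMIs, the 43 cells of cluster 05 had a median of 3.80% and the 370 of cluster 06 one of 0.725%.

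**Figure D2:**
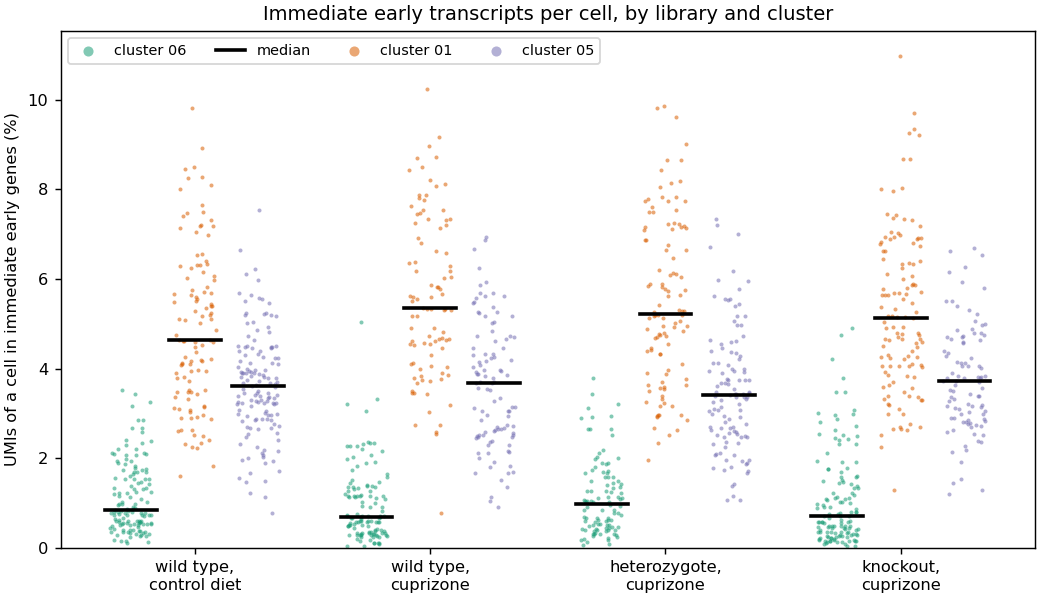
Share of each cell's UMIs in the 25 immediate early and dissociation response genes (vertical axis, percent) by library (horizontal axis) in clusters 06, 01 and 05, with a bar at each median. The medians of cluster 06 lie between 0.684% and 0.980% in the 4 libraries, while clusters 01 and 05 have medians of 5.18% and 3.53% over all libraries.

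As shares of cells at one depth, Fos was seen in 60.5% of cells of cluster 06 (exact 95% interval 55.7 to 65.2), in 97.9% of cluster 01 and in 95.1% of cluster 05. The interval pools cells of all libraries and does not cover the spread between them. In cluster 06 Fos ran from 53.7% in the knockout to 67.9% in wild-type control. Ier2 was seen in 34.7%, 91.2% and 86.2% of the cells of clusters 06, 01 and 05, and Egr1 in 21.3%, 77.5% and 71.7%. In cluster 07 these genes were themselves common (95.2% for Fos, 83.6% for Ier2 and 66.7% for Egr1), so that cluster gives no background for them. How far free RNA adds to the Fos UMIs of cluster 06 was not tested.

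Promoters are shown for 3 of these genes because the immediate early list moved as a block. Each run is the 250 bases before the RefSeq start site in GRCm38.p6, written on the gene's strand, with matches in capitals: TGACG on either strand, the core of the cAMP response element, for Fos and Dusp1, and for Nfkbia a kappa-B motif, GGG, any 2 bases and TTTCC, on either strand.
Fos, chr12:85473640-85473889, plus strand: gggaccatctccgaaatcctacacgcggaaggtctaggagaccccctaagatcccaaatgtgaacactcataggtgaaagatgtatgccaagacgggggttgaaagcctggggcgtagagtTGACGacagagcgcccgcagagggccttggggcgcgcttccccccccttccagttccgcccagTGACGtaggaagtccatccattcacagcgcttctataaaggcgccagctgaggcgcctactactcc
Dusp1, chr17:26508473-26508722, minus strand: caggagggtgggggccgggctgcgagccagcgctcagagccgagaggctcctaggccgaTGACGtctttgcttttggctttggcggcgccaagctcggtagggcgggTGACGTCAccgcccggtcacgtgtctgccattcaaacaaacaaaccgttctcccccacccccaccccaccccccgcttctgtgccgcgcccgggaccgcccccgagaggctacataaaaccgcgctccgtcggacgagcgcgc
Nfkbia, chr12:55492648-55492897, minus strand: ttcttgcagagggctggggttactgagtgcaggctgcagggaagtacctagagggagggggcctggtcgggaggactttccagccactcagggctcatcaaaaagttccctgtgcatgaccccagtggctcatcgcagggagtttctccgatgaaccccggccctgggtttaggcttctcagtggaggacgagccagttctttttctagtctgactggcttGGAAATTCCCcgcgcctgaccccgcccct
In Fos the 2 matches begin 129 and 66 bases before the start. In Dusp1 matches begin 191, 143 and 140 bases before it, and the last pair overlap as the palindrome TGACGTCA. Nfkbia has 1 match, read on the opposite strand, that begins 29 bases before the start. TGACG was found in 17.9% of all 27025 promoters of the table, in 29.2% of the 1859 tested genes with a promoter, in 36.2% of the 152 genes lower than in cluster 01, in 8 of 20 immediate early genes and in 3 of 20 homeostatic genes. The full palindrome TGACGTCA, which holds TGACG on both strands, was found in 1.62%, 3.07% and 6.58% of all promoters, tested genes and lower genes. For the kappa-B motif these shares were 1.40%, 1.34% and 3.29%. For TGANTCA, the AP-1 motif, they were 6.87%, 4.36% and 3.95%, and it was in 0 of 20 immediate early promoters. The CArG box of serum response factor was in 1.40%, 1.02% and 1.32%, and in 1 of 20 immediate early promoters. A match is a string of letters and shows no binding.

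Cytokines and chemokines were the next group lower than in cluster 01, 10 of 18 members with a list median of -0.98. Il1b, the inflammatory cytokine interleukin-1 beta, was at 29.7, 37.5, 9.72 and 6.31 CPM in cluster 06 and at 292, 144, 146 and 78.3 CPM in cluster 01, in the order of the groups above. Tnf had 36 UMIs in all of cluster 06 and a ratio of -2.99 ± 0.75. Ccl3 and Ccl4, chemokines of activated macrophages, were at -2.48 ± 0.13 and -2.22 ± 0.18. Members that stayed near level included Ccl9 (log2 ratio -0.09), Cxcl16 (-0.15) and Tgfb1 (0.00).

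Of 20 microglia transcription factors 7 were lower, among them Klf4 and Jun, which are immediate early genes as well. Klf2, a Krüppel-like factor also listed as homeostatic, had a ratio of -2.52 ± 0.60. Cebpb, a factor of myeloid activation, was 2.83-fold lower and its relative Cebpa had a ratio of -1.16 ± 0.29. The lineage factor Spi1 (-0.08), the microglial identity factor Sall1 (-0.25) and Mef2c (-0.14) did not pass 1.5-fold. In the TGF-beta pathway 3 of 11 members were lower: the repressors Tgif1 (-1.97 ± 0.61), Skil (-0.82 ± 0.27) and Smad7 (-0.73 ± 0.48). Its receptors Tgfbr1 (-0.05) and Tgfbr2 (0.27) were not called.

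Homeostatic genes were near level between clusters 06 and 01. Of 28 members 25 did not pass 1.5-fold, none was higher and 3 were lower, among them Klf2 and Rhob (-1.40 ± 0.20). The list median was 0.06, next to -0.04 over all genes with 50 UMIs. Cst3, the secreted protease inhibitor cystatin C, had a ratio of 0.38 ± 0.06. The fractalkine receptor Cx3cr1 had a ratio of -0.23 ± 0.13. Per cell, homeostatic genes took a median of 12.5% of UMIs in cluster 06, 10.7% in cluster 01 and 11.4% in cluster 05.

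All 77 cytosolic ribosomal protein genes had a positive ratio, with a median of 0.45, and 3 passed 1.5-fold. Mitochondrially encoded transcripts had a median of 0.28 and lysosomal genes one of 0.23, with 0 of 12 and 0 of 25 called. These shifts are relative to all other RNA. Heat shock chaperones had 2 of 9 members lower, Dnajb1 (-1.89 ± 0.33) and Hspa5 (-0.66 ± 0.13). Of 4 nuclear-retained RNAs 2 were lower, Neat1 (-1.76) and Snhg12 (-0.75), with a median of -0.62. Neat1 was at 97.0, 89.7, 63.2 and 52.6 CPM in cluster 06 and between 205 and 285 CPM in cluster 01. Gamma-actin, Actg1, had a ratio of -1.08 ± 0.02, one of the most even over the libraries, while beta-actin, Actb, was at -0.12. Of 6 further disease-associated genes 2 were higher, Lgals3 (1.25, 86 UMIs in both clusters) and Anxa5 (0.59), with a median of 0.56. Without the cells low in homeostatic genes described below, the ratios were 0.67 for Lgals3 and 0.44 for Anxa5, and the median was 0.38. Those cells were taken out of cluster 06 alone while cluster 01 kept its own, so the clusters were not treated alike.

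The genes higher than in cluster 01 were of modest size. S100a13, a calcium-binding protein, was at 67.3, 104, 134 and 96.7 CPM in cluster 06 and at 48.3, 26.4, 48.7 and 47.4 CPM in cluster 01, a ratio of 1.24 ± 0.64. Bloc1s1, a subunit of a lysosome-related complex, had a ratio of 1.06 ± 0.20 and the nucleoside diphosphate kinase Nme1 one of 0.94 ± 0.48. Ndufa5, a subunit of respiratory complex I, stood at 0.84 ± 0.27 and Nop10, a small nucleolar ribonucleoprotein component, at 0.83 ± 0.20. Cst7, an inhibitor of lysosomal proteases and a DAM gene, had a ratio of 0.91 ± 0.74, and the interferon-induced Ifitm3 one of 0.85 ± 0.78. The SDs of Cst7 and Ifitm3 are nearly as large as their means. Without the cells low in homeostatic genes described below, the ratio was 0.59 for Cst7 and 0.62 for Ifitm3, and Ifitm3 was no longer called. Here too cluster 01 kept all its cells. Tyrobp, the adaptor that carries the TREM2 signal, was at 4790, 4685, 4402 and 5291 CPM in cluster 06 and between 3038 and 3416 CPM in cluster 01, a ratio of 0.59 ± 0.14. It was the 1 called member of 7 on the TREM2-independent DAM list, whose median was 0.35. On the TREM2-dependent list 2 of 11 were higher, Cst7 and Spp1 (0.64), and 1 lower, the growth factor Csf1 (-1.36, 93 UMIs in both clusters). Spp1 was at 0.29 without the cells low in homeostatic genes and at 0.44 without the heterozygote, both short of 1.5-fold.

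**Figure D3:**
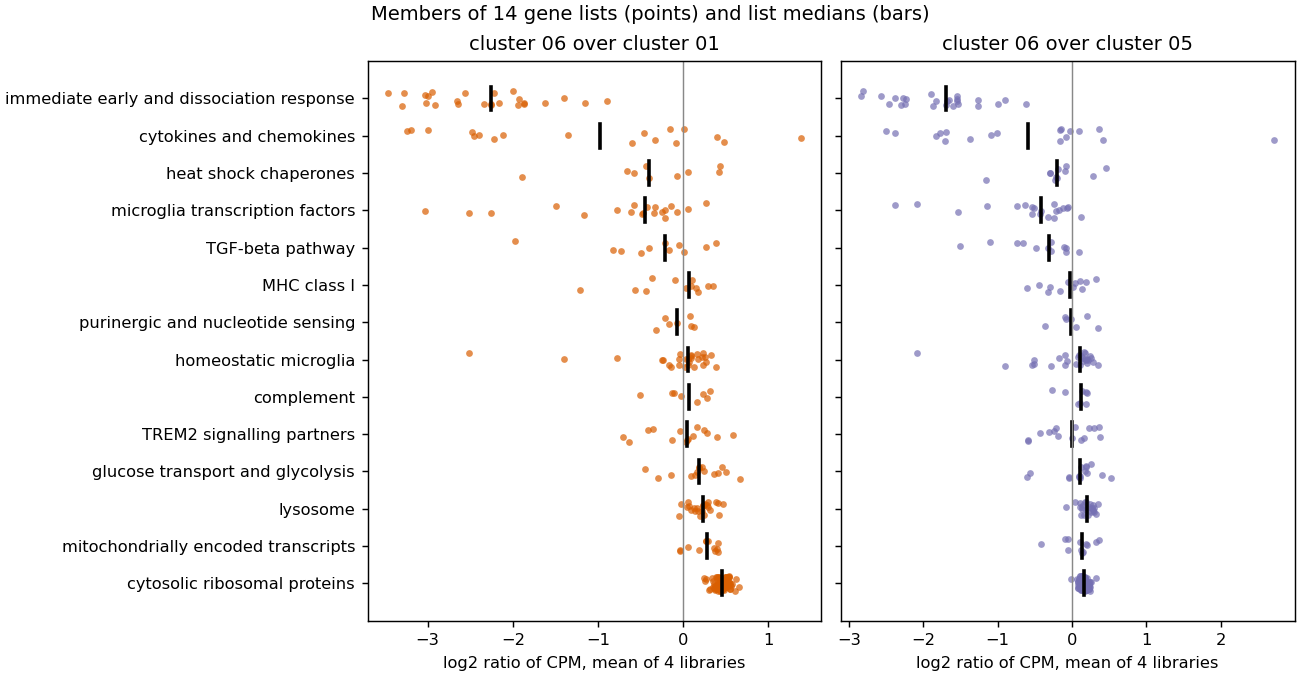
Log2 ratios of CPM (horizontal axes, mean of 4 libraries) of cluster 06 over clusters 01 and 05 for the members of 14 gene lists (points), with list medians as bars. Immediate early genes lie furthest to the left, with medians of -2.26 and -1.70, while homeostatic genes centre near 0.

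Against cluster 05, whose cells are deeper, 12 of 3440 genes (0.349%) were higher in cluster 06 and 176 (5.12%) lower, with a median over all genes of 0.02. Immediate early genes were again all lower, 25 of 25, with a median of -1.70. Over the 7372 genes with 50 UMIs, 7.16% were lower and 0.855% higher, and the median was -0.05. Fos was at 4389, 3695, 3528 and 4079 CPM in cluster 05, and its ratio was -2.27 ± 0.04. Egr1 had a ratio of -2.83 ± 0.33, Ier2 one of -2.81 ± 0.28 and Atf3 one of -2.57 ± 0.48. Both comparisons share the sums of cluster 06, so they are not independent of each other. Cytokines and chemokines had 8 of 18 members lower and 1 higher. The higher one was Ccl5, which rests on a single cell described below.

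Homeostatic genes were near level here too, with a median of 0.11 and 26 of 28 not past 1.5-fold. Klf2 (-2.08 ± 0.41) and Rhob (-0.90 ± 0.21) were lower. P2ry13 had a ratio of 0.35 ± 0.12 and Cx3cr1 one of -0.51 ± 0.09, opposite in sign. Higher than in cluster 05 were Suclg2, a subunit of a succinate-CoA ligase (0.80 ± 0.33), the calcium-binding Calu (0.72 ± 0.38), the peroxiredoxin Prdx6 (0.72 ± 0.47) and the glutathione transferase Gsto1 (0.60 ± 0.34). Suclg2 stood at 71.3, 60.5, 72.9 and 65.2 CPM in cluster 06 and between 31.0 and 49.7 CPM in cluster 05, with no overlap. Its ratio was 1.28 in thinned cells, 0.66 without the control library, 0.79 without the heterozygote and 0.93 without the knockout. These values pass 1.5-fold, but Suclg2 was not called in those settings. The other 3 fell short of 1.5-fold under some settings. Gsto1 was at 0.47 by the mean over cells, 0.56 without its top cells, 0.49 without the heterozygote and 0.52 without the knockout. Prdx6 was at 0.57 in thinned cells and 0.53 without wild-type cuprizone, and Calu at 0.56 without the heterozygote. In thinned cells 9 genes were higher than in cluster 05, of which 1 was among the 12.

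The remaining microglia clusters were compared in the same way. Against cluster 02, 357 of 5780 genes (6.18%) were higher in cluster 06 and 824 (14.3%) lower. Against cluster 04, 551 of 3087 (17.8%) were higher and 243 (7.87%) lower, and against cluster 08 it was 205 of 2567 (7.99%) and 78 (3.04%). Cluster 04 held only 6 cells in wild-type control and 13 in the knockout, and cluster 08 held 13 in wild-type control. Each library weighs equally and must share the sign, so these ratios and calls rest in part on few cells. The split against cluster 08 turned with the scaling, to 78 higher and 116 lower genes with TMM factors. The higher share against cluster 04 went from 69.4% to 58.8% with TMM and 56.4% with median-of-ratios scaling. Homeostatic genes were higher in 13 of 28 members against cluster 02, 22 of 28 against cluster 04 and 11 of 28 against cluster 08. The shares higher among all genes with 50 UMIs were 6.15%, 11.9% and 7.68% there. P2ry12 had log2 ratios of 1.05, 2.12 and 0.98 against the 3 clusters and Tmem119 of 0.66, 1.68 and 0.90. Immediate early genes were lower in 23, 19 and 19 of 25 members, where all genes gave 13.8%, 8.97% and 3.63%. TREM2-dependent DAM genes were lower in 5, 8 and 4 of 12 members, and none was higher. Klf2, although listed as homeostatic, was lower than in each of the 3 clusters, at -1.59, -0.81 and -1.33.

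The next question is how diet and Trem2 genotype bear on cells that stay in cluster 06. With 1 library a group there is no replicate check and no p-value. A gene was called where the ratio of CPM passed 2-fold, its exact 95% interval excluded 1 and both sums held at least 100 UMIs together.

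Trem2 checks the labels. It lies on chromosome 17 from 48346401 to 48354147 (plus strand, GRCm38). In cluster 06 it was at 3703 CPM in wild-type control, 3111 in wild-type cuprizone, 1841 in the heterozygote and 507 in the knockout. The levels followed the genotypes, with the knockout 6.14-fold lower than wild-type cuprizone (5.36 to 7.06) and the heterozygote 1.69-fold lower (1.55 to 1.85). The libraries read the 3′ end of transcripts and the allele is not known here, so the 241 UMIs left in the knockout cannot be read as working transcript.

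Between the wild-type diets, 3 of 1393 genes (0.215%) were higher on cuprizone and 5 (0.359%) lower, 4 of the lower ones unnamed gene models. Klf2 was the named lower gene: 826 CPM in wild-type control against 321 in wild-type cuprizone, 364 in the heterozygote and 338 in the knockout. The 3 cuprizone libraries lay together and the control apart, 2.57-fold above wild-type cuprizone (2.13 to 3.11). In cluster 01 Klf2 ran at 2786, 2156, 3260 and 1798 CPM, so the control was not the highest there, and in cluster 05 at 2356, 1342, 1921 and 1714 CPM. Ifitm3 was at 69.3 CPM in wild-type control and at 215, 160 and 164 CPM in the 3 cuprizone libraries, 3.10-fold higher (2.09 to 4.69) in wild-type cuprizone. It was seen in 22 to 26 cells of each library, and 1 cell held 23.3% of its UMIs in wild-type cuprizone. Phb, a prohibitin of mitochondria, was at 65.3 against 148 CPM, 2.27-fold higher (1.48 to 3.53). Ccl12, a monocyte chemokine, was at 143, 452, 204 and 202 CPM. It was 3.17-fold higher (2.42 to 4.20) in wild-type cuprizone than in control. A single cell held 44.7% of the Ccl12 UMIs of wild-type cuprizone. Leaving out the top cell of each library gave a log2 ratio of 0.92, under 2-fold.

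List members were counted at 1.5-fold and 50 UMIs. Over all 2693 such genes 2.56% were higher and 2.3% lower. None of 28 homeostatic genes was higher and 2 were lower, Klf2 and Sall1 (log2 ratio -0.68). P2ry12 was at 4362 CPM in wild-type control and 4249 in wild-type cuprizone. Of 19 immediate early genes 2 were lower, Nr4a1 (-1.17) and Atf3 (-0.63). The TREM2-dependent DAM list had 1 of 7 members higher, Cst7, at 45.5 against 104 CPM. Lysosomal genes had 0 of 24 called.

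Apoe encodes the main apolipoprotein of the brain. Its level in cluster 06 was 2355 CPM in wild-type control, 4466 in wild-type cuprizone, 9981 in the heterozygote and 7698 in the knockout. Wild-type cuprizone was 1.90-fold above control (1.77 to 2.04), short of a call. The heterozygote was highest, 2.24-fold above wild-type cuprizone (2.12 to 2.36). In cluster 01 the levels were 2197, 5596, 5848 and 5021 CPM, and in cluster 05 2445, 5941, 5989 and 3931 CPM. Per cell the median was 15.4 Apoe UMIs per 10000 in wild-type control, 28.1 in wild-type cuprizone, 39.1 in the heterozygote and 23.1 in the knockout, while the 90th percentiles were 40.0, 103, 260 and 197. The 10% of cells with the most Apoe held 39.9% of its UMIs in wild-type control, 39.8% in wild-type cuprizone, 52.0% in the heterozygote and 56.1% in the knockout. The summed level of the knockout was above that of wild-type cuprizone and its median per cell below it. With the mean over cells in place of the sum, the heterozygote's log2 ratio was 0.94, under 2-fold.

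**Figure D4:**
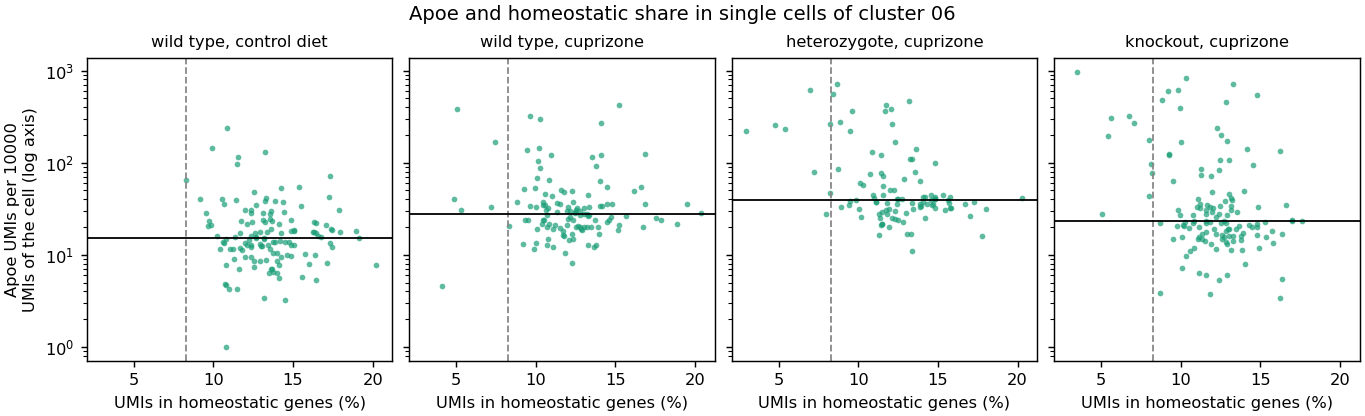
Apoe UMIs per 10000 UMIs of a cell (vertical log axis, the 1 cell with none drawn at 1) against the share of its UMIs in homeostatic genes (horizontal axes, percent) for cells of cluster 06 in each library. The solid line is the median, 15.4, 28.1, 39.1 and 23.1 from left to right, and the dashed line marks 8.28%, the lowest homeostatic share in wild-type control.

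Cells low in homeostatic genes were set apart by a limit taken from the control. The lowest homeostatic share among the 134 wild-type control cells was 8.28% of UMIs, and 6 cells of wild-type cuprizone, 8 of the heterozygote and 10 of the knockout lay under it. In those cells Apoe was at 10542, 22090 and 21082 CPM, against 4205, 9100 and 6583 CPM in the other cells of the same libraries. P2ry12 was at 1419, 2327 and 957 CPM there, against 4370, 4633 and 4295 CPM. The 10 knockout cells included 1 cell with 53 UMIs of Ccl5, a chemokine and T or NK cell marker. In the heterozygote 3 cells held 36 of the library's UMIs of Spp1, which encodes osteopontin. The limit is the control's own lowest value, so no control cell can lie under it, and P2ry12 is one of the genes summed, so its lower level there follows from the choice. The limit was also set after the values had been seen, so the split is a description. It was applied to cluster 06 alone. In cluster 01 the 10th percentile of the homeostatic share was 8.08% and the lowest cell had 3.68%.

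The heterozygote differed from wild-type cuprizone in few genes: 4 of 1276 (0.313%) were higher and 1 (0.0784%) lower. Besides Apoe these were Hspa1a, an inducible heat shock chaperone, Gpr183, a receptor for oxysterols, and Tcf4, a basic helix-loop-helix factor, with Ccl12 lower. Hspa1a was at 149, 144, 379 and 71.5 CPM, with the heterozygote 2.63-fold above wild-type cuprizone (1.97 to 3.55). These UMIs lay in few cells: 16 of 122 cells of wild-type cuprizone and 23 of 104 of the heterozygote had any, and the 10% of cells with most held 94.2% and 83.3% of them. In cluster 01 the heterozygote was also the highest library for Hspa1a. Gpr183 had a ratio of 2.13 (1.43 to 3.21) and Tcf4 one of 2.08 (1.37 to 3.198). Without the cells low in homeostatic genes the log2 ratio of Tcf4 was 0.98, short of a call. Of list members over 50 UMIs, where 1.7% of 2469 genes were higher and 1.62% lower, none of 28 homeostatic genes and none of 24 lysosomal genes passed 1.5-fold. Immediate early genes had 2 of 18 higher, Txnip (0.66) and Jund (0.60).

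In the knockout, 0 of 1326 genes (0%) were higher than in wild-type cuprizone and 5 (0.377%) lower: Trem2, Klf6, Ccl9, Ccl12 and Hspa1a. Klf6, a Krüppel-like factor of the immediate early list, was at 230, 231, 231 and 65.2 CPM. The knockout stood apart from the other 3 libraries, 3.55-fold below wild-type cuprizone (2.37 to 5.47). In cluster 01 Klf6 was at 752, 752, 909 and 624 CPM. Ccl9, a macrophage chemokine, was at 204, 298, 231 and 116 CPM, 2.58-fold lower (1.88 to 3.59). Hspa1a lay at the limit, 2.01-fold lower (1.32 to 3.13), and its log2 ratio was -0.94 with TMM and -0.95 with median-of-ratios scaling, short of it. Ccl12 was 2.24-fold lower (1.76 to 2.88), with log2 ratio -0.56 without the top cells.

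**Figure D5:**
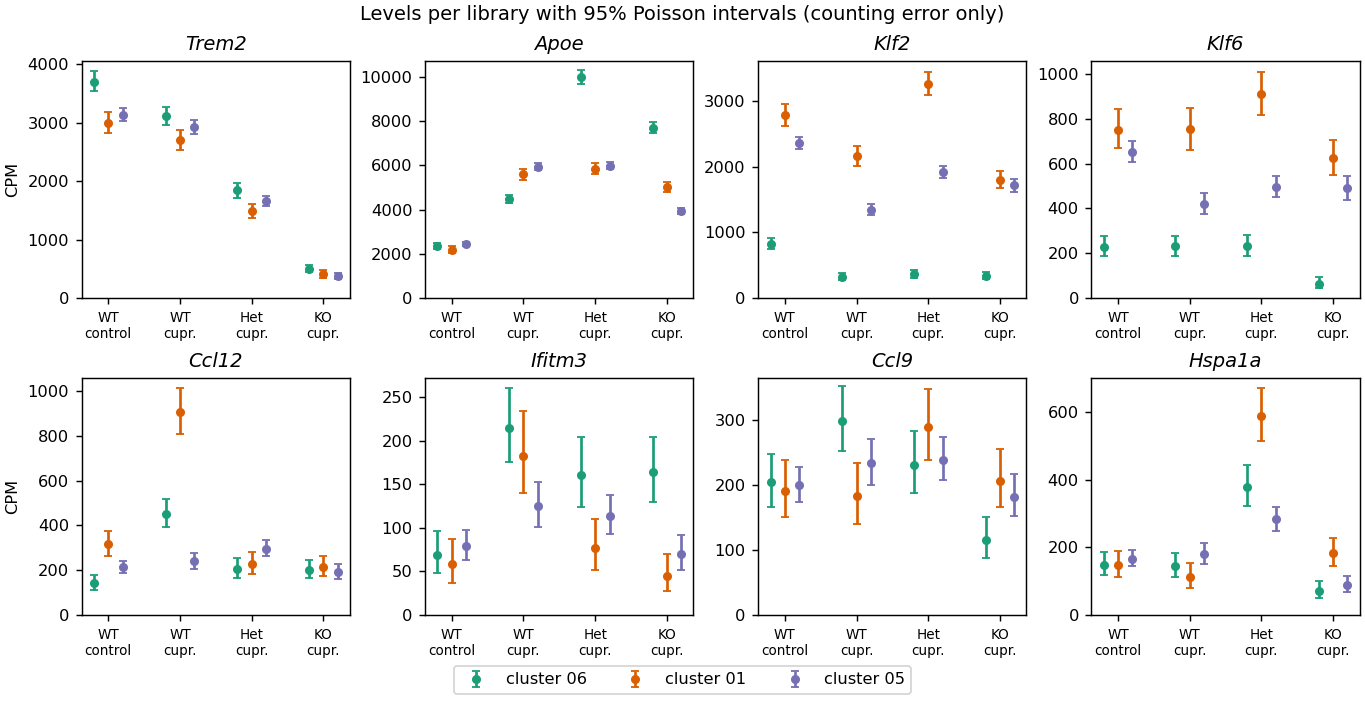
CPM (vertical axes) of Trem2, Apoe, Klf2, Klf6, Ccl12, Ifitm3, Ccl9 and Hspa1a in the 4 libraries (horizontal axes) for clusters 06, 01 and 05, with exact Poisson 95% intervals as bars. Trem2 follows genotype in each cluster, from 3703 to 507 CPM in cluster 06, and Klf6 of cluster 06 is lowest in the knockout at 65.2 CPM.

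List members in the knockout were counted against 1.5% higher and 4.65% lower of 2536 genes. Of 28 homeostatic genes 2 were lower, Serinc3 and Entpd1. Serinc3, a membrane protein named for serine incorporation, was at 2881, 2600, 2587 and 1627 CPM, 1.60-fold lower in the knockout than in wild-type cuprizone (1.46 to 1.75). In clusters 01 and 05 the knockout was likewise the lowest library for Serinc3, at 1900 and 1793 CPM. Jund, a member of the AP-1 family, went the other way, at 1192, 988, 1494 and 1844 CPM, 1.87-fold higher in the knockout (1.67 to 2.09). Cytokines and chemokines had 4 of 10 members lower and 1 higher: Ccl9, Ccl12, Il1a and Ccl4 were lower, and Ccl5 higher. For Ccl5, 53 of the knockout's 54 UMIs lay in 1 cell, and Ccl12 had a log2 ratio of -0.56 without its top cells. Among TREM2 signalling partners Ptprc, the phosphatase CD45 by which the cells were gated, was lower at 63.1 against 117 CPM, besides Trem2 itself. The adaptor Tyrobp was not called, with a log2 ratio of 0.18.

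The same library comparisons made in clusters 01 and 05 gave these counts. For wild-type cuprizone over control, 6 genes were higher (0.597%) and 8 lower (0.796%) in cluster 01, and 3 higher (0.114%) and 9 lower (0.342%) in cluster 05. For the heterozygote over wild-type cuprizone they were 1 higher (0.1%) and 7 lower (0.701%) in cluster 01, and 6 higher (0.254%) and 1 lower (0.0423%) in cluster 05. For the knockout over wild-type cuprizone they were 3 higher (0.282%) and 7 lower (0.657%) in cluster 01, and 0 higher (0%) and 3 lower (0.146%) in cluster 05. Whether any effect differs between clusters was not tested.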

How the data were processed

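The authors deposited UMI counts per gene and cell (12800 genes, 3023 cells), made with Cell Ranger 2.1.1 on mm10, per the submitters' processing notes, from Chromium Single Cell 3′ v2 libraries, per the labels' protocols. The rarest genes of the table are seen in 8 cells. Clusters and libraries came from the authors' file of cells. Clustering settings and gene annotation: not given in the sources used here. All 4 libraries were used, each as 1 group.

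UMIs were summed per library and cluster and divided by all UMIs of that sum (CPM). Cluster ratios were means of 4 log2 ratios with their SD. Ratios between libraries have exact conditional binomial (Clopper-Pearson) 95% intervals, shares exact binomial and CPM exact Poisson intervals. A sum of 0 was set to 3 UMIs per library. Cells were thinned to 2638 UMIs, the 10th percentile of clusters 01, 05 and 06, and 76 of 494 cells of cluster 06 were shallower and left out there. Doublets were called with Scrublet in scanpy 1.11.5. Alternatives used edgeR 4.0.16 (TMM) and DESeq2 1.42.0 (size factors). The scripts were tested on simulated data. Of the deposited gene IDs, 12767 (99.7%) matched GENCODE vM21.

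Named genes were the 3 given markers and Trem2, the 12 higher and 12 lower called genes with the largest ratio against clusters 01 and 05, the 10 in each direction whose interval bound nearest 1 lies farthest from 1 in each library comparison, and up to 4 members of each list by UMIs and by ratio. Cebpa, Cxcl16 and Dusp1 fall outside this rule and were chosen after their values were seen. Unnamed gene models were counted only. Some list members are counted but not reported here by name. A gene in several lists was counted in each. The members, lists and rules were chosen with earlier results of these data known. The 2 animals of a library cannot be told apart, and no p-value is given.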

Additional observations from a re-analysis of the deposited data

How the results depend on the processing

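No paired analysis was possible because each group has 1 library. No gene named for its rank among the called genes, and no list median past 1.5-fold, changed sign under the alternatives run. Ccl5, called higher in the knockout as a list member, did change sign. Without the cells low in homeostatic genes its level was lower in the knockout than in wild-type cuprizone. For other genes named only as list members no such statement is made. The balance of higher and lower genes did turn against cluster 08 with scaling, from 205 and 78 to 78 and 116 (TMM) or 81 and 111 (median-of-ratios), and against cluster 05 with no minimum of UMIs. Against cluster 01, the 68 higher genes became 104 with median-of-ratios scaling, 108 without mitochondrial and ribosomal genes, 270 with no minimum of UMIs and 2 at 2-fold. The 190 lower genes became 113 in thinned cells, where 1470 instead of 2404 genes were measured, 1628 with no minimum and 103 at 2-fold. Leaving out 1 library gave 54 to 80 higher and 142 to 165 lower genes. Against cluster 05, the 12 higher genes became 19 with TMM and 19 with median-of-ratios scaling, 1547 with no minimum and 0 at 2-fold. The 176 lower ones became 81 in thinned cells, 673 with no minimum and 68 at 2-fold. Leaving out 1 library gave 7 to 15 higher genes, the 7 without the knockout, and 144 to 163 lower. Of the 12, 4 were also called without the control library and 3 without each of the others, against 34 to 47 of the 68 higher than cluster 01. The 2 scalings were added after the data were seen for clusters 02, 04 and 08. Inside cluster 06, for wild-type cuprizone over control, the 3 higher genes became 5 by the mean over cells, 116 with no minimum, 1 without the top cell of each gene and 24 at 1.5-fold, and the 5 lower became 125 with no minimum and 34 at 1.5-fold. For the heterozygote, the 4 higher became 1 in thinned cells, 96 with no minimum and 21 at 1.5-fold, and the 1 lower became 97 with no minimum, 0 without the top cell and 15 at 1.5-fold. For the knockout, the 0 higher became 2 by the mean over cells, 1 in thinned cells, 72 with no minimum and 16 at 1.5-fold, and the 5 lower became 164 with no minimum, 3 without the top cell and 55 at 1.5-fold. Removing called doublets, or cells of cluster 06 low in homeostatic genes (added after the data were seen), kept these counts within 1.5 times. Apart from thinning, the fold limits and the UMI minimum, which change the genes measured or the rule itself, the cause was not tested. Genes with under 100 UMIs in a pair of libraries could not be called at this depth.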

Other observations

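Cytokine and chemokine transcripts varied from cell to cell inside cluster 06. Genes of the list of cytokines and chemokines took a median of 0.288% of a cell's UMIs in wild-type control and 0.272% in wild-type cuprizone. In the heterozygote it was 0.227% and in the knockout 0.196%. The highest cells reached 2.63%, 3.79%, 1.93% and 1.85% in that order. The corresponding medians over all libraries were 0.245% in cluster 06, 0.574% in cluster 01 and 0.604% in cluster 05. The highest cell reached 10.4% in cluster 01 and 3.92% in cluster 05, so such a spread is not particular to cluster 06. Ribosomal protein genes took a median of 10.0% in wild-type control, 12.2% in wild-type cuprizone, 11.2% in the heterozygote and 13.2% in the knockout, lowest in the control library. The control was also lowest and the knockout highest in cluster 01, at 7.86% and 9.29%. In cluster 05 the same held, at 9.83% and 11.3%, so this order is not particular to cluster 06.

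A few genes of cluster 06 rested on single cells. Mbp, a myelin protein gene of oligodendrocytes, was at 13.9, 93.8, 26.7 and 31.5 CPM, and 1 cell of wild-type cuprizone held 71.1% of that library's Mbp UMIs. Stmn1, a regulator of microtubules that dividing cells express, was at 31.7, 95.9, 97.2 and 103 CPM, and 1 knockout cell held 51.0% of its UMIs there. Capg, an actin-capping protein, was at 39.6 CPM in wild-type control against 117 in wild-type cuprizone, with 76 UMIs in both together, under the 100 UMIs asked for a call.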
